A study of Mus musculus with 56 samples.

Results

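The genes described here make the acidifying pump of the lysosome, its soluble enzymes, its membrane proteins and the transcription factors that drive their expression. There are 44 of them, chosen by name as genes of the lysosome, with earlier results of these data known. All 44 are among the 23420 genes of the bulk count table. They are 6 subunits of the membrane sector (V0) of the proton pump, 8 of its cytosolic sector (V1), 2 accessory subunits, 16 hydrolases, 3 other soluble proteins, 6 membrane proteins and the 3 factors Tfeb, Tfe3 and Mitf. After a filter on low values 44 were tested in 2 of the 5 comparisons and 43 in the other 3, where Atp6v0d2 was too low.

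The V-ATPase spends ATP on the cytosolic side, in V1, to turn a rotor that carries protons through V0 into the lysosome. The acid keeps hydrolases active, which take apart proteins, lipids, glycans and glycosaminoglycans, while membrane proteins line the organelle and export what is released. TFEB, TFE3 and MITF are related factors that can enter the nucleus when mTORC1 is inactive and bind CACGTG-containing elements near many of these genes. Microglia, the macrophages of the brain, rely on lysosomes to digest what they engulf.

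The study measured mouse microglia with 56 libraries. In 18 of them, microglia from the cortex of wild-type B6 mice at postnatal day 9 (P9) were sorted for high (n = 10) or low (n = 8) staining with TMRM, a dye held by mitochondria with a membrane potential, and sequenced in bulk. Another 16 came from the cortex of B6/129 pups carrying Mapttm1(EGFP)Klt, in which the promoter of the neuronal tau gene drives GFP, and microglia were sorted by Tau-GFP signal into plus and negative cells (n = 8 each). The labels give these pups as 10 days old and the design text as 9. Cultured microglia gave 14, grown from wild-type B6 pups of day 5 to 8 for 7 to 9 days in a medium with M-CSF and then kept in medium or given IL-33, an alarmin cytokine, at 200 ng/ml for 3 h (n = 7 each). Their protocol also mentions the inhibitor GSK-J4 at 0.2 uM, without saying which cultures received it. Finally, 8 single-cell libraries came from cortex, 2 each of wild-type B6 at P9, wild-type B6 at P28, and P9 littermates labelled ST2 Het and ST2 KO for the IL-33 receptor. The labels do not say that libraries of a group came from separate animals, so the p-values measure the spread between these libraries, which may be technical.

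Depth in the bulk count table ran from 7709047 to 11826389 expected counts a library. The single-cell libraries gave 14419 microglia-like cells of 15335, between 639 and 2898 a library, with totals of 4085754 to 10573984 UMIs. At most 14 cell barcodes were shared by a pair of single-cell libraries. Read depth behind the TMRM values is not known. In bulk samples, fewer cells of a type and less RNA per cell cannot be told apart. Markers of other cells moved with several groups, and the main ones are given with each comparison.

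Promoters of 37 of the 44 genes had an entry in the RefSeq table (GRCm38.p6), which covers 250 bases before to 50 after a gene's start. CACGTG, a palindrome that reads alike on both strands, stood in 12 of the 37 (32.4%), against 2187 of 27025 genes in the whole table (8.09%). The longer palindrome TCACGTGA, which contains it, stood in 16.2% of the member promoters and 1.12% of all. The 12 were Atp6v0b, Atp6v0d1, Atp6v0e and Atp6v1a of the pump, the hydrolases Gaa, Gla, Glb1, Naglu and Sgsh, and the membrane proteins Cln3, Lamp1 and Mcoln1. The 4 shown here have the most copies (Lamp1), a calcium channel with a pair (Mcoln1), and the pump subunits with large differences below (Atp6v1a and Atp6v0d1), with the motif in capitals, 5′ to 3′ on each gene's strand.
Lamp1: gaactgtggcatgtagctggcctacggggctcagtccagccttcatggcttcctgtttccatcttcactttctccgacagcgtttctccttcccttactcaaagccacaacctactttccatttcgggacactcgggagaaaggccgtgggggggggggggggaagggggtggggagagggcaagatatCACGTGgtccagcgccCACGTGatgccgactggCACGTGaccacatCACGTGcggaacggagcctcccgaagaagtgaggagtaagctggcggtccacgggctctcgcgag
Mcoln1: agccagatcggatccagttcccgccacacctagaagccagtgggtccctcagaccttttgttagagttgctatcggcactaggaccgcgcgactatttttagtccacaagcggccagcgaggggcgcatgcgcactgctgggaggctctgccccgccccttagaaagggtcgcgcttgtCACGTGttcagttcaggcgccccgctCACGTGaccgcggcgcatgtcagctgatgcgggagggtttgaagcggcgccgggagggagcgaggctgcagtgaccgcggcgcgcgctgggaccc
Atp6v1a: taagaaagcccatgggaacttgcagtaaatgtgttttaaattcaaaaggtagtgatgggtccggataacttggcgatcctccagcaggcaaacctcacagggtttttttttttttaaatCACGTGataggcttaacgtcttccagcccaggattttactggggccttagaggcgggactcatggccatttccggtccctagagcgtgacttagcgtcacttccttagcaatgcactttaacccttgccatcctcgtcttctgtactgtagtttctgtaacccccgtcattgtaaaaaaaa
Atp6v0d1: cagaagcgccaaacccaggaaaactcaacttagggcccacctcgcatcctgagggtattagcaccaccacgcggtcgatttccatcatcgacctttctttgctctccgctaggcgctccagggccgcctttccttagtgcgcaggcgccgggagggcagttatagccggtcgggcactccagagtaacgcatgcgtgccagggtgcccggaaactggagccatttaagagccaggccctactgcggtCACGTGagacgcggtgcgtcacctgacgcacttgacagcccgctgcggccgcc
They lie at chr8:13158911-13159210 (plus strand), chr8:3500269-3500568 (plus), chr16:44139210-44139509 (minus) and chr8:105566015-105566314 (minus). Lamp1 held 4 copies, beginning 61, 45, 28 and 15 bases before the start, and Mcoln1 held 2, at 71 and 45 bases. Atp6v1a held 1 copy, at 131 bases, and Atp6v0d1 1 copy, at 3 bases. A match describes these letters and is not evidence of binding.

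Levels could be compared between genes only per length, in FPKM (fragments per kilobase, scaled to the library). In the TMRM low libraries Laptm5, a membrane protein of myeloid lysosomes, stood first at 1352 ± 92.1 FPKM (SD, n = 8), followed by Grn, the progranulin gene, at 1049 ± 148 FPKM. Below a gap with no overlapping libraries came Psap, the precursor of the saposins that help enzymes reach sphingolipids (477 ± 110 FPKM), and Hexa, the alpha chain of beta-hexosaminidase (445 ± 17.6 FPKM). Lamp1, the chief glycoprotein of the lysosomal membrane, followed at 367 ± 144 FPKM. At the other end, Tfeb stood at 5.12 FPKM, Mitf at 2.10, Sgsh, the heparan sulfate sulfamidase, at 1.88, and Atp6v0d2 last at 0.456 FPKM. Neighbours in this order overlapped over libraries except below Grn, Atp6v1e1, Tfeb and Sgsh.

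**Figure D1:**
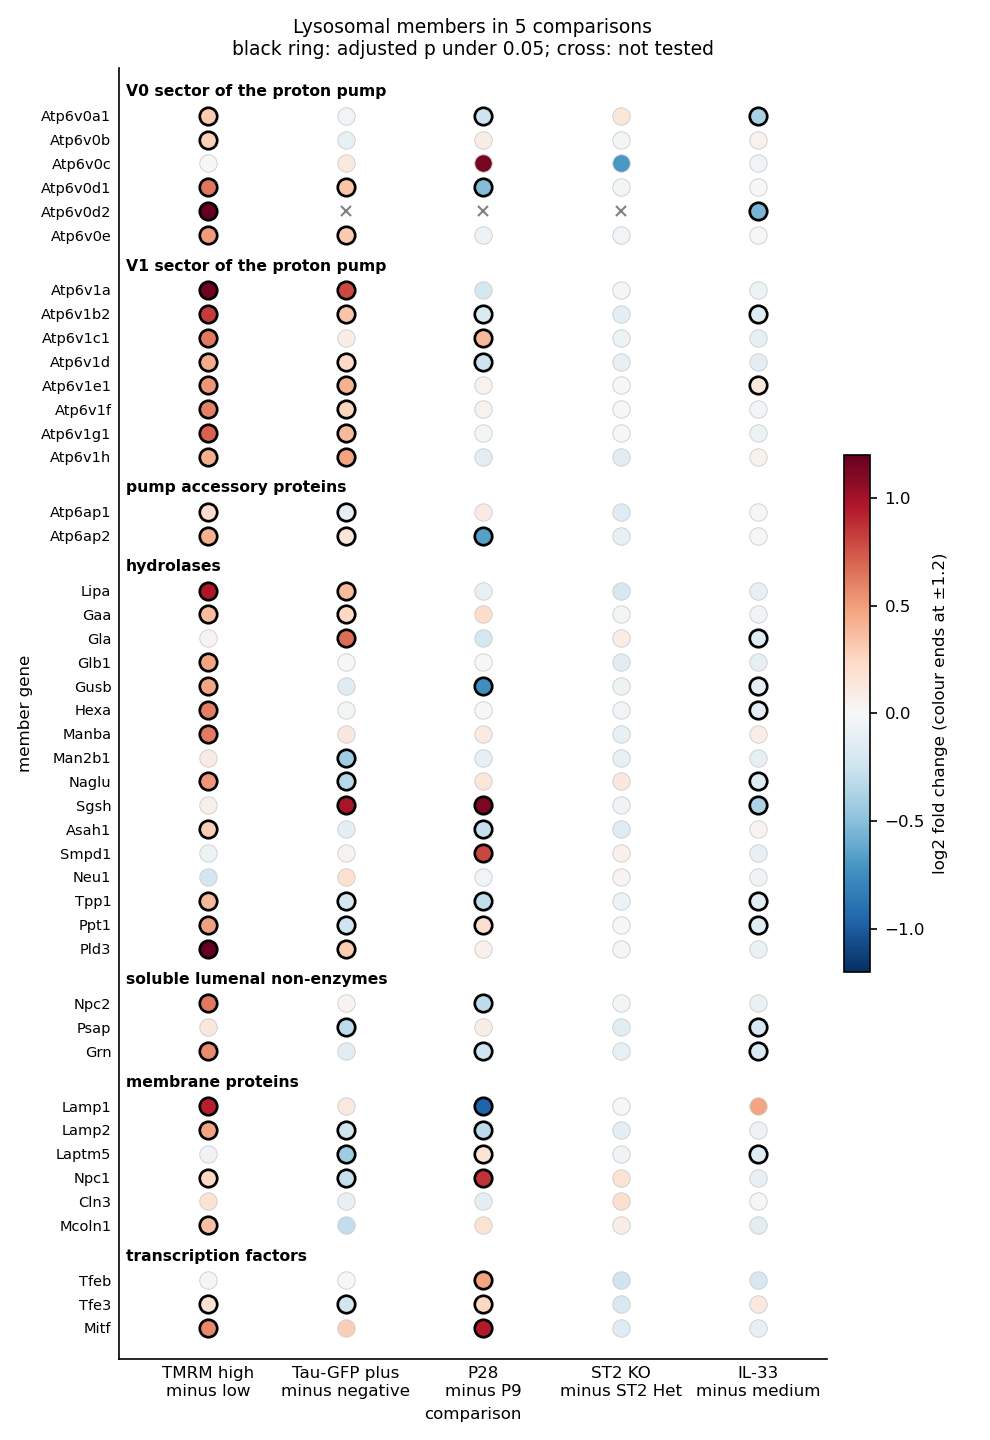
Log2 difference, by colour, of each of the 44 genes (rows, by role) in the 5 comparisons (columns), with a black ring for adjusted p under 0.05 and a cross where the gene was not tested. Colours end at 1.2 on either side, the TMRM column holds 34 rings, all on higher genes, and the ST2 column holds none.

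The proton pump and the hydrolases were higher in TMRM high microglia. By limma on log2(FPKM + 1), with Benjamini-Hochberg adjustment over all 10714 genes tested, 34 of the 44 were higher (77.3%) and none lower, against a background of 20.4% of all genes higher and 9.84% lower. A gene is called at an adjusted p under 0.05, and differences are on the log2(FPKM + 1) scale, which understates changes of low genes. The median difference was 0.46 over the 44 genes and 0.06 over all genes. Of the 44, 19 lay wholly above in high libraries, all among the 34 called, and 0 wholly below. Of all genes 5.17% lay wholly above and 1.68% wholly below. By role, 8 of 8 V1 subunits were called higher, 5 of 6 V0 subunits, 2 of 2 accessory subunits, 11 of 16 hydrolases, 2 of 3 other soluble proteins, 4 of 6 membrane proteins and 2 of 3 transcription factors.

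Among the V1 subunits, Atp6v1b2, part of the ring that hydrolyses ATP, ran from 110 to 146 FPKM in TMRM high libraries with a median of 126, and from 60.03 to 76.1 with a median of 71.1 in TMRM low. Every high library lay above every low one, and the difference was 0.84 ± 0.06 (SE, adjusted p = 2.21e-09). Its partner in the ring, Atp6v1a (chromosome 16, 44085402 to 44139705, on GRCm38), averaged 49.4 ± 4.19 FPKM in high and 21.7 ± 4.03 in low (1.17 ± 0.10, adjusted p = 3.11e-08). The stalk subunits Atp6v1c1 and Atp6v1g1 differed by 0.64 and 0.71 (adjusted p = 2.45e-07 and 2.05e-06). The whole sector had a median difference of 0.62, and its smallest was that of Atp6v1h at 0.43 ± 0.12 (adjusted p = 0.00884).

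In V0, the d subunit couples the rotor to the membrane ring and has a widespread form, d1, and a form known from osteoclasts and macrophages, d2. Atp6v0d2 (chromosome 4, 19876841 to 19922605) ran from 6.03 to 15.8 FPKM in TMRM high with a median of 9.32, and from 0 to 1.09 with a median of 0.456 in low. No high library reached down to a low one, and the difference of 2.93 ± 0.17 (adjusted p = 1.13e-10) was the largest of the 44 genes. Atp6v0d1 ran from 48.9 to 74.9 FPKM with a median of 61.4 in high, and from 34.7 to 42.1 with a median of 37.8 in low. These libraries did not overlap either (0.64 ± 0.07, adjusted p = 1.58e-06). Atp6v0d1 was the more abundant form in TMRM high libraries.

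**Figure D2:**
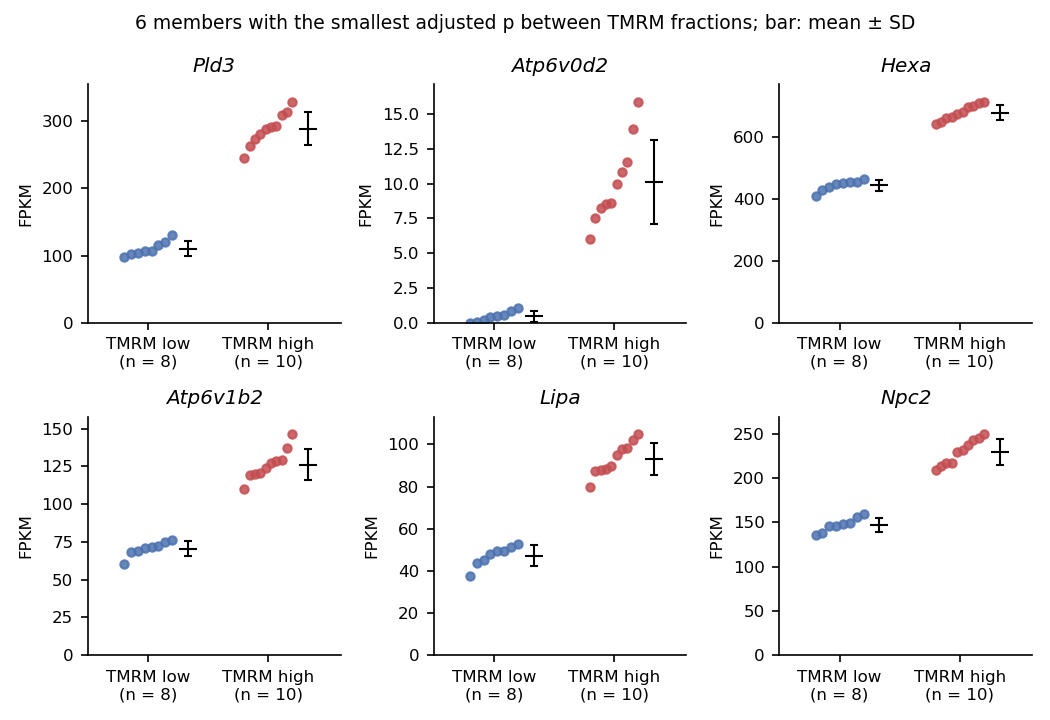
FPKM in each TMRM low (n = 8) and TMRM high (n = 10) library for the 6 members with the smallest adjusted p, points sorted by value, with mean and SD as bars. For all 6 genes every high library lies above every low library.

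Among the enzymes, Pld3, a lysosomal nuclease of the phospholipase D family (chromosome 7, 27532000 to 27553218), ran from 246 to 328 FPKM with a median of 290 in high and from 98.0 to 130 with a median of 107 in low. It differed by 1.38 ± 0.07 (adjusted p = 5.4e-12) with no overlap. Hexa ran from 644 to 714 FPKM, median 680, in high and from 411 to 465, median 452, in low. Its libraries were tightly grouped and separate (0.61 ± 0.04, adjusted p = 6.08e-10). Lipa, the acid lipase that frees cholesterol from its esters, ran from 79.7 to 105 FPKM, median 92.3, against 37.3 to 52.6, median 48.6. All high libraries again lay above all low ones (0.97 ± 0.07, adjusted p = 2.58e-09). Gusb, beta-glucuronidase, differed by 0.48 (adjusted p = 1.45e-06).

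Of the other soluble proteins, Npc2, which hands cholesterol to the exporter NPC1, ran from 210 to 249 FPKM, median 230, in high and from 136 to 159, median 147, in low. It did not overlap between groups (0.64 ± 0.05, adjusted p = 1.01e-08). Grn averaged 1543 ± 79.6 and 1049 ± 148 FPKM (0.57 ± 0.07, adjusted p = 1.91e-06). Among the membrane proteins, Lamp1 averaged 688 ± 225 FPKM in high and 367 ± 144 in low, with libraries from 173 to 865 and from 109 to 490 (0.93 ± 0.33, adjusted p = 0.0364, lost in 4 of 7 alternatives with values up to 0.0922). Its libraries spanned a 7.92-fold range, and its groups overlapped. Of the factors, Mitf was at 3.57 ± 0.67 against 2.10 ± 0.70 FPKM (0.58 ± 0.12, adjusted p = 0.00152) and Tfe3 at 36.6 ± 2.99 against 32.4 ± 2.39 (0.17 ± 0.06, adjusted p = 0.0421, lost in 5 of 7 alternatives with values up to 0.194). Tfeb, at 5.27 ± 0.82 and 5.12 ± 0.48 FPKM, did not pass (0.03 ± 0.09, adjusted p = 0.842).

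The 10 members that did not pass ran from -0.22 for Neu1, a sialidase, to 0.19 for Cln3. They included Psap, Laptm5 and Man2b1. In the wider lists, 7 of 13 cathepsins and legumain were higher and 1 lower, with the protease genes Ctsb at 2374 ± 156 against 992 ± 97.8 FPKM (1.26 ± 0.06) and Ctsd at 8644 ± 670 against 4001 ± 706 (1.12). Of 22 further hydrolases 10 were higher and 2 lower, and of 19 further membrane proteins 8 and 1, with the tetraspanin gene Cd63 at 852 ± 50.9 against 416 ± 39.4 FPKM. Genes for delivery to the lysosome gave 7 and 1 of 12, and the mTORC1 and TFEB regulators 7 and 3 of 15. The other pump isoforms did not follow the members: of 3 tested none was higher and 2 were lower, Atp6v0a2 at 28.8 ± 2.9 against 40.4 ± 6.4 FPKM (-0.46, adjusted p = 0.000936) and Atp6v1g2 (-0.55).

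The sorted fractions also differed in other transcripts. The 8 neutrophil markers summed to 16.03 to 798 FPKM in high and 676 to 2345 in low libraries, and 8 of 8 were called lower in high. Choroid plexus markers summed to 30.5 to 117 FPKM in high and 116 to 34014 in low. Markers of border-associated macrophages, which line the vessels and meninges, summed to 124 to 216 and 51.6 to 136 FPKM, with 5 of 8 higher in high. Cell cycle genes summed to 930 to 1107 and 585 to 759 FPKM, with 14 of 17 higher, and 8 of 12 microglia markers were lower in high. Their part in the differences was not tested. Without TMRM low replicates 2 and 7, 30 members were higher and 1, Neu1, was lower (-0.31, adjusted p = 0.0145). Of the 10588 genes tested there, 2342 were higher and 1045 lower. Scaling libraries by their median ratio turned the split of all calls from 2189 higher and 1054 lower to 1718 and 1437, and that of the members to 30 higher and 1 lower, again Neu1.

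In Tau-GFP plus microglia most V1 subunits of the pump were higher, hydrolases were called in both directions and the called membrane proteins were lower. By edgeR's quasi-likelihood test with Benjamini-Hochberg adjustment over 12138 genes, 15 of 43 members were higher (34.9%) and 10 lower (23.3%), against a background of 20.7% and 16.9% of all genes (37.7% in either direction). The median log2 difference was 0.04 over the members and 0.01 over all genes. Of the 43 members tested, 4 lay wholly above and 4 wholly below, all of them called. Of all genes 6.82% lay wholly above and 4.46% wholly below. Of 8 V1 subunits 7 were higher, with a sector median of 0.37, and of 5 V0 subunits 2. Of the accessory subunits Atp6ap2 was higher (0.15) and Atp6ap1 lower (-0.12). Of 16 hydrolases 5 were higher and 4 lower, 3 of 6 membrane proteins were lower and none higher, and 1 of 3 other soluble proteins was lower.

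Atp6v1a ran from 166 to 229 CPM (counts as a rate per library, after TMM scaling) in Tau-GFP plus libraries with a median of 205, and from 90.7 to 138 with a median of 115 in negative ones. All plus libraries lay above all negative ones (0.79 ± 0.08, SE, adjusted p = 1.55e-06). Atp6v1e1, a stalk subunit, ran from 85.2 to 102 CPM, median 91.2, against 63.0 to 74.5, median 67.9. It too was separate between groups (0.43 ± 0.06, adjusted p = 1.29e-05). Atp6v1h, which regulates the joining of V1 to V0, ran from 73.0 to 94.7 CPM, median 81.5, against 51.5 to 68.5, median 59.4, without overlap (0.48 ± 0.08, adjusted p = 9e-05). Atp6v1g1, Atp6v1b2 and the V0 subunit Atp6v0e differed by 0.39, 0.34 and 0.32 (adjusted p = 0.00012, 0.00053 and 0.000214). The 1 V1 subunit not called was Atp6v1c1, at 0.09 ± 0.06 (adjusted p = 0.226).

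**Figure D3:**
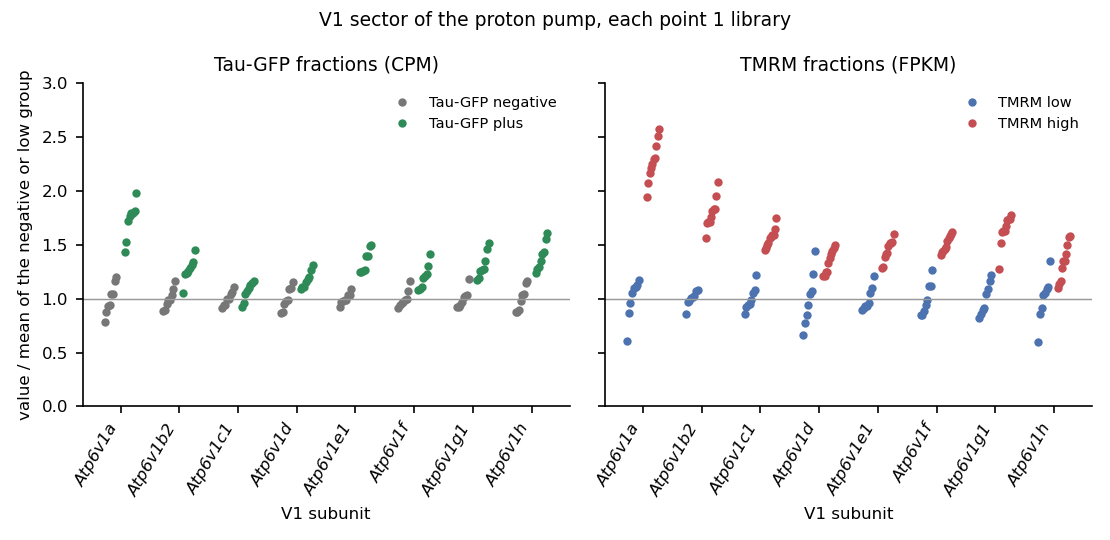
Value of each V1 subunit in each library divided by the mean of the negative (left, CPM) or low group (right, FPKM), points sorted by value within a group. Atp6v1a stands furthest from the line at 1 in both panels, and Atp6v1c1 overlaps between the Tau-GFP groups.

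Atp6v0d1 ran from 87.1 to 102 CPM in plus libraries, median 94.1, and from 61.6 to 83.1 in negative ones, median 73.0. Its groups were separate (0.35 ± 0.06, adjusted p = 0.000269). Atp6v0d2 was too low to be tested. The plus libraries held 0, 48, 4, 39, 3, 3, 6 and 22 counts of it in the order of their numbers, and the negative libraries 0 to 2, so that 3 plus libraries hold most of its signal. Of 4 pump isoforms tested outside the members 1 was higher and 2 were lower. The higher 1 was Atp6v0e2, at 15.1 ± 3.70 against 1.54 ± 1.40 CPM (3.29 ± 0.50, adjusted p = 5.58e-05), with no overlap. Atp6v0a2 averaged 69.4 ± 10.3 CPM in plus and 127 ± 18.3 in negative libraries (-0.88 ± 0.10, adjusted p = 2.56e-06) and Tcirg1, the a3 subunit, 279 ± 53.5 against 415 ± 69.5 CPM (-0.57 ± 0.12, adjusted p = 0.0013).

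Among the enzymes, Sgsh ran from 18.7 to 48.3 CPM in plus libraries, median 32.99, and from 12.2 to 19.2 in negative ones, median 17.2. The groups met only at their edges (0.99 ± 0.16, adjusted p = 7.68e-05). Of its exon bases 21.6% overlap Card14 on the opposite strand, and without strand in the counting reads of the pair cannot be told apart. Lipa averaged 246 against 189 CPM (0.38, adjusted p = 0.00163). Man2b1, the lysosomal alpha-mannosidase, went the other way, from 1148 to 1761 CPM, median 1521, in plus and from 1786 to 2101, median 2038, in negative libraries. All plus libraries lay below all negative ones (-0.42 ± 0.07, adjusted p = 9.14e-05).

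Laptm5 was also lower, at 3070 to 4698 CPM, median 4301, in plus and 5284 to 6093, median 5562, in negative libraries. These groups were fully separate (-0.43 ± 0.07, adjusted p = 8.59e-05). Psap averaged 1343 and 1670 CPM (-0.31, adjusted p = 0.00097). Tfe3 was at 152 ± 17.01 and 178 ± 13.3 CPM (-0.23 ± 0.07, adjusted p = 0.0144). Mitf (0.30 ± 0.20, adjusted p = 0.271) and Tfeb (-0.01 ± 0.15, adjusted p = 0.971) did not pass, and the uncalled members ran from -0.29 to 0.30.

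Beyond the members, 7 of 21 further hydrolases were lower and 3 higher, among the lower ones Arsb, a sulfatase (-0.63). Of 11 cathepsins and legumain 5 were lower and 2 higher, with Ctss at -0.63 and Ctsc at 0.95. Further membrane proteins gave 1 higher and 7 lower of 19, and delivery genes 2 and 4 of 14. The mTORC1 and TFEB list gave 6 higher and 1 lower of 16, the lower 1 being Rptor (-0.66), while Tfec, a relative of Tfeb, was higher (1.12).

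The markers of border-associated macrophages summed to 2779 to 7727 CPM in Tau-GFP plus libraries and 469 to 734 in negative ones, and 8 of 8 were called higher. All 12 microglia markers were lower, with sums of 30950 to 46842 against 60269 to 72060 CPM. Neuron markers summed to 61.1 to 154 against 5.04 to 11.97 CPM and mural markers to 45.0 to 305 against 6.21 to 37.0. Cell cycle markers were called higher for 11 of 17 and lower for 1, and endothelial markers higher for 5 of 8. Their part in the differences was not tested. Without plus replicate 3, 16 members were higher and 9 lower, against 2284 and 1870 of 12220 genes. Without replicates 1, 3, 4 and 8 of both groups, 15 members were higher and 3 lower, against 1441 and 939 of 12270 genes. The 3 were Psap, Laptm5 and Man2b1.

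The single-cell libraries held border-associated macrophage-like cells, so the same genes could be set against microglia-like cells there. Only 3 libraries held at least 50 such cells, both of P9 and replicate 1 of P28. In them 12 members had every macrophage-like value above every microglia-like value. A further 5 had every value below (Grn, Laptm5, Naglu, Ppt1 and Psap), and the ranges of 27 overlapped. The share of all genes that separate in this way was not counted, so these counts have no background. These are descriptions with no test, since the cells of a library share its source and the types were named from other genes of the same cells. The median over libraries was 97.6 against 37.6 CPM for Atp6v1a, 138 against 80.8 for Lipa, 16.3 against 3.00 for Sgsh, 1066 against 2419 for Laptm5 and 1061 against 1930 for Psap. Of the 15 members higher in Tau-GFP plus, 8 had separate, higher ranges in the macrophage-like cells and 7 had overlapping ranges. Of the 10 lower ones, 4 had separate, lower ranges and 6 had overlapping ranges. These ranges span 2 ages, so members were also compared within each library. Of the 7, Atp6v0d1 and Gaa were above in 3 of 3 libraries, Atp6v1f in 2, and Atp6v1d, Atp6ap2 and Gla in 1. Pld3 was below the microglia-like level within each of the 3 libraries, with medians of 125 and 129 CPM. Of the 6, Npc1 and Tfe3 were above in 2 libraries, and Atp6ap1, Man2b1, Tpp1 and Lamp2 in 1.

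**Figure D4:**
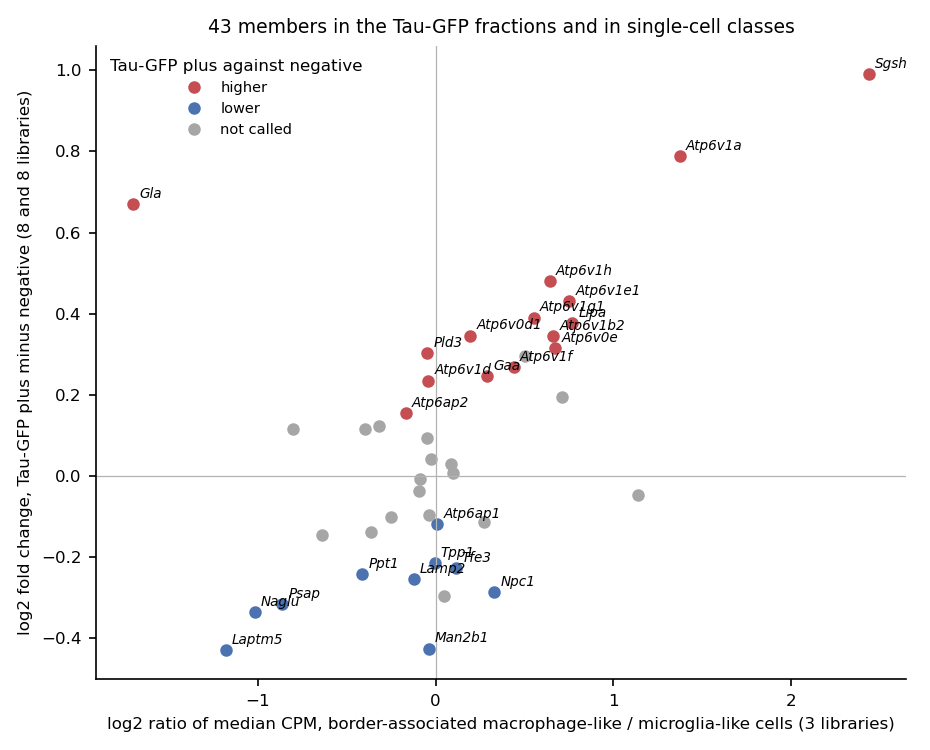
Log2 difference of the 43 tested members between Tau-GFP plus and negative (vertical axis) against the log2 ratio of their median CPM between border-associated macrophage-like and microglia-like cells in 3 single-cell libraries (horizontal axis), coloured by the Tau-GFP call. Atp6v1a, Lipa and Sgsh lie at the upper right, Laptm5 and Psap at the lower left, and Gla, whose place rests on 4 UMIs, at the upper left.

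Over all microglia-like cells, the members were called about as often as other genes between P9 and P28, and the factors rose. In the fit of summed UMIs over microglia-like cells (edgeR's quasi-likelihood test with Benjamini-Hochberg adjustment over 11602 genes, 2 libraries each), 9 of 43 members were higher at P28 (20.9%) and 12 lower (27.9%), against a background of 27.5% and 26.2% (53.7% in either direction). The median was -0.01 for the members and 0.06 for all genes. Of the 43 members tested, 17 lay wholly above at P28 and 19 wholly below, among them all 21 called. With 2 libraries each, this held for 41.7% of all genes upward and 36.5% downward. Of the pump, 1 member was higher and 5 were lower. Of these 5, Atp6v0a1 was lost in 8 of 14 alternatives, Atp6v1b2 in 6 and Atp6v1d in 1. Hydrolases split into 3 higher and 3 lower of 16, membrane proteins into 2 and 2 of 6, and 2 of 3 other soluble proteins were lower.

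Lamp1 stood at 2142 and 1985 CPM in the P9 libraries and at 1056 and 1059 at P28. Both older libraries were at about the same lower level (-0.96 ± 0.05, SE, adjusted p = 2.29e-09). Gusb was at 426 and 402 CPM at P9 and 246 and 247 at P28, again lower in both older libraries (-0.75 ± 0.05, adjusted p = 5.83e-08). Npc1, the cholesterol exporter of the lysosomal membrane, rose from 41.4 and 39.6 to 74.2 and 73.5 CPM. Both older libraries lay above both younger ones (0.87 ± 0.08, adjusted p = 7.89e-07). Its soluble partner Npc2 fell by 0.31 (adjusted p = 4.87e-05). Smpd1, acid sphingomyelinase, rose from 31.0 and 30.3 to 50.5 and 56.7 CPM (0.80 ± 0.09, adjusted p = 6.29e-06), with both P28 libraries higher.

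In the pump, the accessory subunit Atp6ap2 fell from 348 and 310 CPM to 203 and 213, with both older libraries below both younger ones (-0.66 ± 0.07, adjusted p = 2.03e-06). Atp6v0d1 fell from 171 and 179 to 125 and 120 CPM, also in both libraries (-0.52 ± 0.06, adjusted p = 9.03e-06). Atp6v1c1 was the pump member that rose (0.40 ± 0.06, adjusted p = 9.84e-05). Atp6v0d2 had 12 and 5 UMIs in the P9 libraries, 0.84 CPM, and 0 of 14760958 UMIs at P28. Against a floor of 3 UMIs over the P28 group (0.203 CPM) it was at least 4.13-fold lower, or 2.54-fold with P9 replicate 2 alone and 5.58-fold with P9 replicate 1 alone. The count stayed near the limit of detection at P9 as well. There 7 of 2566 and 2 of 2221 microglia-like cells held it, against 6 of 236 and 2 of 216 border-associated macrophage-like cells. The other P9 libraries stood near the floor of 0.203 CPM, at 0.142 and 0.147 CPM for ST2 Het and 0 and 0.246 CPM for ST2 KO. The fold therefore rests on the wild-type P9 libraries alone.

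All 3 factors were higher at P28. Mitf rose from 9.62 and 7.85 to 15.1 and 18.9 CPM (0.95 ± 0.17, adjusted p = 0.000353), Tfeb from 22.1 and 19.3 to 28.9 and 29.1 (0.49 ± 0.10, adjusted p = 0.00138) and Tfe3 from 102 and 98.1 to 121 and 117 (0.25 ± 0.08, adjusted p = 0.0207, lost in 4 of 14 alternatives with values up to 0.175). The older libraries lay above the younger ones for each. Of the other members, Lamp2, Tpp1 (a peptidase) and Grn fell by 0.33, 0.30 and 0.24. Among isoforms outside the members, 3 of 3 were higher, Tcirg1 at 102 ± 2.9 against 76.6 ± 3.2 CPM (0.41 ± 0.08, adjusted p = 0.000561). Further hydrolases gave 7 higher and 8 lower of 21, membrane proteins 4 and 7 of 20, delivery genes 3 and 3 of 13, mTORC1 and TFEB regulators 3 and 4 of 15, and cathepsins 4 and 5 of 11, with Ctsh at 1.14 and Ctsl at -1.14. Tfec fell from 15.9 to 2.9 CPM (-2.46).

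Other markers moved with age in the summed microglia-like cells. Cell cycle genes fell, 18 of 18, with sums of 139 to 157 CPM at P28 and 2395 to 2550 at P9, and the 2 ages lay mostly in different clusters. Markers of border-associated macrophages were lower for 6 of 6 tested, with sums of 33.03 to 37.2 CPM at P28 and 297 to 310 at P9. Neutrophil markers were higher for 5 of 6, at 58.8 to 93.3 against 5.73 to 8.71 CPM, and microglia markers higher for 10 of 12, at 34743 to 35519 against 27233 to 28089 CPM. Their part in these differences was not tested. Without the clusters of dividing cells 7 of 43 members were higher and 18 lower, against 2713 and 2627 of 11161 genes. The median was then -0.14 for the members and 0.05 for all genes, and a larger share of members than of all genes was lower. Tfe3 and Ppt1 were no longer called higher, and Pld3, Cln3, Man2b1, Hexa, Atp6v1a and Lipa were added to the lower ones.

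No member passed the test between microglia-like cells labelled ST2 KO and ST2 Het. Of 43 tested by edgeR with Benjamini-Hochberg adjustment, 0 were called, where the background was 0.31% of all genes higher and 0.302% lower. At an unadjusted p under 0.05 there were 6, 1 higher and 5 lower, against 9.98% of all genes. By DESeq2 there were 2, against 3.7% of all genes. The median difference was -0.05 for the members and 0.00 for all genes, with a median SE of 0.07, and differences ran from -0.70 to 0.20. The smallest adjusted p was 0.323, for Lipa, at 88.8 and 92.7 CPM in Het and 77.1 and 80.6 in KO libraries. Both KO libraries lay below both Het libraries, by 0.20 on the log2 scale, which the adjusted test did not separate from the spread. With 2 libraries each, 17 of 43 members lay wholly below in KO and 4 wholly above. Of all genes 19% lay wholly below and 18.8% wholly above.

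For the pump's d subunits, Atp6v0d1 was at 160 ± 2.81 CPM in KO and 164 ± 9.03 in Het (-0.03 ± 0.06, adjusted p = 0.909), and Atp6v0d2 had 1 and 0 UMIs in KO and 1 and 1 in Het. Tfe3 (-0.19 ± 0.09, adjusted p = 0.492), Tfeb (-0.24 ± 0.12, adjusted p = 0.539) and Mitf (-0.14 ± 0.22, adjusted p = 0.878) did not pass. Of the wider lists 1 gene was called, the cathepsin gene Ctsh, at 266 ± 17.9 against 328 ± 9.7 CPM (-0.30 ± 0.06, adjusted p = 0.0364).

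In cultured microglia given IL-33, 7 of 16 hydrolases were slightly lower and none higher, and 4 of 16 pump members were called. By edgeR's quasi-likelihood test with Benjamini-Hochberg adjustment over 10815 genes, 13 of 44 members were lower (29.5%) and 1 was higher (2.27%), against a background of 3.54% and 4.22% of all genes (7.76% in either direction). The median difference was -0.10 for the members and -0.01 for all genes. Of the 44 members, 7 lay wholly below and 1 wholly above, all of them called. Of all genes 1.4% lay wholly below and 2.15% wholly above. Of 6 V0 subunits 2 were lower, of 8 V1 subunits 1 lower and 1 higher, of 3 other soluble proteins 2 and of 6 membrane proteins 1.

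In V0, Atp6v0a1 (chromosome 11, 101009452 to 101063719), the subunit that lines the proton path, ran from 115 to 132 CPM with IL-33, median 118, and from 147 to 173 in medium, median 158. The groups were separate (-0.39 ± 0.05, SE, adjusted p = 1.05e-05). Atp6v0d2 ran from 38.8 to 48.3 CPM, median 43.6, against 57.4 to 75.5, median 64.7, and was the member that fell furthest (-0.56 ± 0.07, adjusted p = 1.92e-05). Atp6v0d1 was at 117 ± 3.89 with IL-33 and 117 ± 4.09 CPM in medium (0.00 ± 0.04, adjusted p = 0.999). Of V1, Atp6v1b2 fell by 0.15 (adjusted p = 0.00457) and Atp6v1e1 rose from 208 ± 7.05 to 228 ± 6.63 CPM (0.14 ± 0.03, adjusted p = 0.0153).

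Sgsh ran from 34.6 to 41.7 CPM with IL-33, median 37.8, and from 44.6 to 53.1, median 50.6, in medium. Its groups did not overlap (-0.38 ± 0.06, adjusted p = 0.000121). Ppt1, which strips palmitate from proteins, ran from 301 to 325 CPM, median 307, against 334 to 350, median 341, also without overlap (-0.14 ± 0.03, adjusted p = 0.00343). Grn ran from 1620 to 1759 CPM, median 1651, against 1817 to 2071, median 1877. It was lower in every IL-33 library than in any medium library (-0.18 ± 0.03, adjusted p = 0.000847). Laptm5 ran from 1423 to 1518 CPM, median 1473, against 1475 to 1678, median 1646, where a single low medium library overlapped (-0.15 ± 0.03, adjusted p = 0.00421). Psap, Gla, Tpp1 and Hexa fell by 0.21, 0.17, 0.13 and 0.13 (adjusted p = 0.00456, 0.0261, 0.0121 and 0.0218).

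Tfe3 (0.12 ± 0.05, adjusted p = 0.138), Tfeb (-0.21 ± 0.10, adjusted p = 0.251) and Mitf (-0.10 ± 0.06, adjusted p = 0.397) did not pass. The 30 uncalled members ran from -0.21 for Tfeb to 0.47 for Lamp1. No pump isoform outside the members was called of 4. Further hydrolases gave 1 higher and 4 lower of 22, with Acp2 at 0.36 and Pla2g15 at -0.31, membrane proteins 1 and 3 of 19, delivery genes 2 and 1 of 14, mTORC1 and TFEB regulators 0 and 2 of 16 and cathepsins with legumain 2 and 3 of 13, with Lgmn at -0.38. Of 10 microglia markers tested 4 were lower with IL-33 (sums of 7037 to 8043 against 7443 to 8428 CPM), of 5 monocyte markers 1 was higher, and no cell cycle marker of 17 was called. Their part was not tested. When all 30 bulk libraries of the table shared 1 fit, 1 member, Atp6v0a1, was called lower and none higher, while all genes gave 184 higher and 154 lower in place of 456 and 383.

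**Figure D5:**
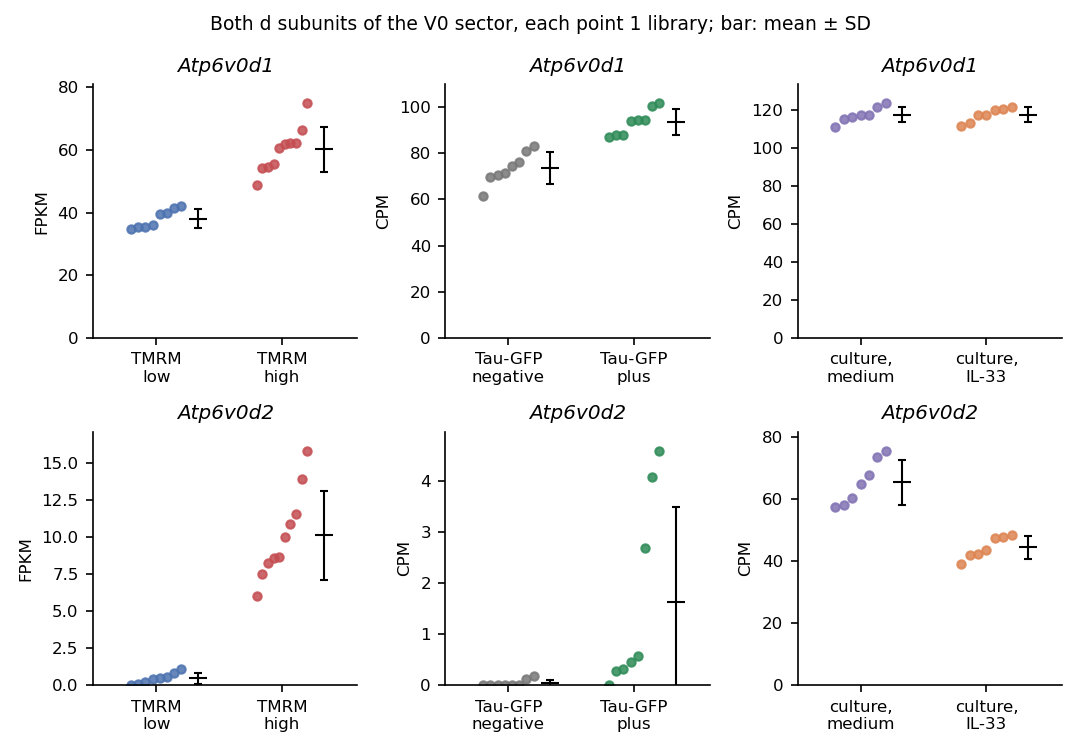
Level of Atp6v0d1 (top) and Atp6v0d2 (bottom) in each bulk library of the TMRM (FPKM), Tau-GFP and culture groups (CPM), points sorted by value, with mean and SD as bars. Atp6v0d2 lies near 0 in TMRM low and Tau-GFP negative libraries, and between 38.8 and 75.5 CPM in cultures.

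Pump transcripts, Atp6v0d2 above all, stood higher in cultures than in freshly sorted cells. On a joint scaling of medium and Tau-GFP negative libraries, which differ also in strain, age and preparation that cannot be told apart from culture, 29 members were above in medium without overlap, 5 below (Grn, Laptm5, Man2b1, Naglu and Tpp1) and 10 overlapped. Of all genes 24.7% lay wholly above and 24.4% wholly below. Atp6v0d2 ran from 67.6 to 87.8 CPM in medium, median 75.2, and from 0 to 0.154 in Tau-GFP negative. Atp6v0d1 averaged 138 ± 4.42 and 64.1 ± 5.93 CPM. All 8 V1 subunits were above in culture, with a median log2 ratio of 1.62 and Atp6v1a furthest, at 786 ± 15.2 against 100.6 ± 14.1 CPM. Hydrolases split into 9 above, 3 below and 4 overlapping, with Lipa at 1467 ± 77.1 against 165 ± 11.8 CPM and Man2b1 at 657 ± 34.3 against 1739 ± 95.02. With library totals in place of TMM scaling 19 members were above and 13 below, and 7 of 8 V1 subunits were above. The median log2 ratio of all genes moved with it, from -0.08 to -0.46. The shares of all genes wholly above and below were not counted under that scaling.

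Members were also counted by the letters of their promoters. In the TMRM comparison 9 of 12 members with it and 18 of 25 without it were higher, with medians of 0.43 and 0.45. In the Tau-GFP comparison 6 of 12 were higher and 1 lower with it (median 0.18), and 6 of 25 higher and 8 lower without it (median -0.01). At P28, 1 was higher and 2 lower of 12 with CACGTG (median -0.04), and 6 and 8 of 25 without it (median 0.04). With IL-33, 0 were higher and 3 lower of 12 with CACGTG (median -0.05), and 1 and 8 of 25 without it (median -0.10). No member of either kind was called for ST2 KO. The difference between the 2 kinds of promoter was not tested, and other genes were not counted in this way.

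For 2 members the level depended on the assay. Atp6v0c, the ring subunit, shares sequence with the pseudogene Atp6v0c-ps2, which was listed above the gene itself in bulk, at a median of 279 against 243 CPM in the Tau-GFP libraries and 553 against 260 FPKM in the TMRM libraries. In the single-cell libraries, whose table does not list that pseudogene, Atp6v0c had 0.946 to 9.20 CPM, so its values are uncertain. Lamp1 ran from 109 to 865 FPKM and from 117 to 424 CPM in bulk cultures, a wide range for an abundant gene, and from 1069 to 2084 CPM in the single-cell libraries.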

How the data were processed

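The deposited bulk values are expected counts, made with Bowtie2 and RSEM on mm10 per the submitters' processing notes, of which 25.3% are not whole. They were rounded, and 30 of 35 columns were used, since 5 match no label. The deposited single-cell values are UMI counts from Cell Ranger, and the deposited TMRM values are FPKM from TopHat2 2.0.10 and Cufflinks 2.0.2, per the same notes. For Bowtie2, RSEM and Cell Ranger no version was given in the sources used here. Gla rests on 9 high libraries, because the values of TMRM high 8 end before it.

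Barcodes that held 500 genes or more, with mitochondrial UMIs under 10%, were clustered (scanpy 1.11.5, 2000 genes, 30 components, 15 neighbours, Leiden resolution 1), and 14 of 18 clusters were microglia-like by fixed markers. A cluster led by endothelial genes was kept out by a threshold set after the data were seen (0 to 55 cells a library). No doublet caller was run, so cells of 2 types were not removed. UMIs were summed per library. Counts were tested with edgeR 4.0.16 (TMM scaling, quasi-likelihood F test, the SE being the absolute log2 difference over the square root of F), with 1 fit for the 8 single-cell libraries, and FPKM with limma 3.58.1 (trend, mean of at least 1 FPKM, pseudocount 1), in R 4.3.3. Tests were two-sided. All p-values were Benjamini-Hochberg adjusted over all genes of a comparison. Values are means ± SD. The fits were tested on simulated data. Named are called members by adjusted p, up to 12 a comparison and the first 6 by library, Tfeb, Tfe3, Mitf, Atp6v0d1 and Atp6v0d2 always, and up to 3 called genes of a wider list. The members and lists were chosen with earlier results of these data known. Alternatives covered scaling, filters, pseudocount, DESeq2 1.42.0, a replicate block and libraries left out.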

Additional observations from a re-analysis of the deposited data

Results flagged for a closer look

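In 62 groups of 4 to 10 bulk libraries screened, over the members given by library, 3 values lay apart from the rest of their group, by the gap to the nearest library relative to the range. Chance marks about 1 in 20 independent groups this way, but genes measured in the same libraries are not independent. Medium replicate 2 gave 2 of the 3 values. It was also the lowest medium library in microglia markers (7443 CPM, group median 8144) and the highest in cell cycle markers (764 CPM, group median 598). No IL-33 alternative left it out. Ppt1 was at 325 CPM in IL-33 replicate 7, where the nearest IL-33 library was at 311. Laptm5 was at 1475 CPM in medium replicate 2, where the nearest medium library was at 1623, and this library alone overlapped the IL-33 group. Mitf was at 54.4 CPM in the same medium replicate 2, with the nearest medium library at 62.3.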

How the results depend on the processing

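No member changed sign after being called under any alternative run. Single calls were lost 76 times, 18 for TMRM, 16 for Tau-GFP, 25 for P28 and 17 for IL-33, of which 13 came with the fit over 30 bulk libraries. That fit left 0 members higher and 1 lower for IL-33, with 184 and 154 of all genes against 456 and 383. For Tau-GFP, leaving out replicates 1, 3, 4 and 8 of both groups used fewer samples, left 3 members lower and 1441 and 939 of all genes against 2516 and 2054, and Mitf was then called (0.73, adjusted p = 0.0484). Atp6ap1, called lower there at an adjusted p of 0.04999, was lost in 7 of 9 alternatives. For P28, leaving out the clusters of dividing cells gave 7 members higher and 18 lower, against 2713 and 2627 of 11161 genes. Over the alternatives that kept all libraries, all genes gave 1945 to 3624 higher and 2504 to 3488 lower, against 3192 and 3036. These fits tested 9276 to 18045 genes, and DESeq2 gave the fewest calls in both directions. For TMRM, median ratio scaling and leaving out low replicates 2 and 7 each gave 1 lower member, with 1437 and 1045 of all genes lower. Restricting to genes of at least 5 FPKM gave 688 lower of 6576 tested, against 1054 of 10714, so fewer genes were also tested. For medium against Tau-GFP negative, library totals gave 19 members above and 13 below, with the median of all genes at -0.46 against -0.08. The causes were not tested where none is named.

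For ST2 KO, 0 members were called under each of the 14 alternatives run, while the 36 higher and 35 lower of all genes became 256 and 111 with no low-count filter and 23 and 21 with all cells. Without clusters led by cell cycle genes 21 were lower, and without the cluster led by immediate early genes 12. Leaving out each library gave 13 to 126 higher and 11 to 35 lower, the lowest without KO replicate 1, the highest without KO replicate 2, and 14 and 15 without Het replicate 2. Without Het replicate 1 they were 27 and 29. A group left with 1 library was assumed to vary like the others.

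With the replicate number as a block, members higher and lower numbered 29 and 0 for TMRM, against 1512 and 791 of 10715 genes. They numbered 15 and 10 for Tau-GFP (2445 and 2092 of 12138 genes) and 11 and 15 for P28 (3262 and 3488 of 11354). For ST2 KO they were 0 and 0 (261 and 84 of all genes), and for IL-33 1 and 12 (470 and 399 of 10815). Same-numbered libraries deviated together (r over 0.1) in 2 of 8, 6 of 8 and 2 of 7 pairs for TMRM, Tau-GFP and IL-33. Pairing was taken only where every one of 3 or more pairs did, so no number was, although Tau-GFP came near it, with 4 of 8 matching best with their own number. The single-cell groups have 2 pairs each (r = 0.01 for P28 and 0.11 for ST2), too few for that rule.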
